A study of Caenorhabditis elegans with 6 samples.

Results

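The genes described here are *zip-2*, of the ZIP-2 surveillance pathway in *C. elegans*, and genes listed with it. The other bZIP transcription factor genes are *cebp-1*, *cebp-2*, *zip-1* and *zip-4*. The infection response genes *irg-1*, *irg-2* and *irg-3* and the receptor gene *fshr-1* complete the list. The paper treats FSHR-1 and ZIP-2 as separate signaling pathways. In the following, pathway genes is only a short name for all of these genes. The rule that picks them goes by gene name and uses no measured value, and each was read through every probe set that the annotation of the array gives to that gene alone. Of the 9 genes, 8 had at least 1 probe set of their own and 9 probe sets were found in all, out of 17118 genes that the array reads in this way. No probe set is given to *cebp-2*, so its transcript was not analysed here.

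The study exposed wild-type N2 animals to RPW-24, a small molecule that stimulates host defense, or to its solvent. Late L4 larvae were kept for 15 hours at 15°C in liquid S-basal complete medium, fed on *E. coli* OP50 without a pathogen, in the presence of RPW-24 at 70 µM or of DMSO alone, and the solvent made up 1% of the medium in both treatments. RNA of whole animals was hybridized to Affymetrix *C. elegans* arrays with 3 biological replicates per treatment, and each of the letters G, H and I names 1 RPW-24 and 1 DMSO array. In whole animals, fewer cells of a type and less RNA per cell cannot be told apart.

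ZIP-2 belongs to a defense system in which the worm senses that a core process, such as protein synthesis, is being blocked, rather than sensing a microbe itself. The *zip-2* transcript carries upstream open reading frames that hold back its translation, and ZIP-2 protein is made when translation elongation is impaired, for example by a *P. aeruginosa* toxin that acts on elongation factor 2. ZIP-2 and its bZIP partner CEBP-2 are needed for the induction of *irg-1*, the gene by which this system is usually followed. An array reads transcripts and carries no information on how much ZIP-2 protein was made.

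The values are linear intensities whose shared floor is 4.39, and 35.5% to 37.1% of the probe sets on each array lay there. Median intensities were 9.83 to 9.98 on the RPW-24 arrays and 8.94 to 9.04 on the DMSO arrays. Log2 intensities of 22548 probe sets were compared with limma, and adjusted p-values are Benjamini-Hochberg values over all of them. Intervals are 95% confidence intervals from that fit. An exact permutation test of 1 gene cannot give a p under 0.1 with 3 arrays in each group, so the calls rest on the variance that limma shares between probe sets.

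Among the pathway genes, *zip-2* itself was higher in RPW-24 and *irg-3* was lower, while the reporter gene *irg-1* lay at or close to the lowest intensity on every array. At an adjusted p under 0.05, 1 of the 8 genes read was higher (*zip-2*), where 478 of all genes (2.79%) were, and 1 was lower (*irg-3*), where 220 of all genes (1.29%) were. At the thresholds of the study, a 3-fold difference or more with an unadjusted p under 0.025, none of the 8 was higher, where 1.66% of all genes were, and *irg-3* was lower, where 0.397% were. With so few genes, 1 call in each direction is a fact about *zip-2* and about *irg-3* and not about the pathway. Before adjustment, 2 of the 8 genes were higher and 2 lower in limma at a p under 0.05, where 7.44% of all genes were higher and 9.61% lower. These counts come from a fit that leaves out the pairing of arrays by replicate letter. With the letter as a block and an adjusted p under 0.05, none of the 8 was higher, where 151 of all genes were. In that fit *irg-3* was lower, where 22 of all genes were. Only *zip-2*, *zip-4* and *fshr-1* had a mean log2 intensity of at least 5. Of the other 5 genes, *irg-1* and *cebp-1* were read at or next to the lowest intensity, and *irg-2*, *irg-3* and *zip-1* lay between it and that level.

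**Figure D1:**
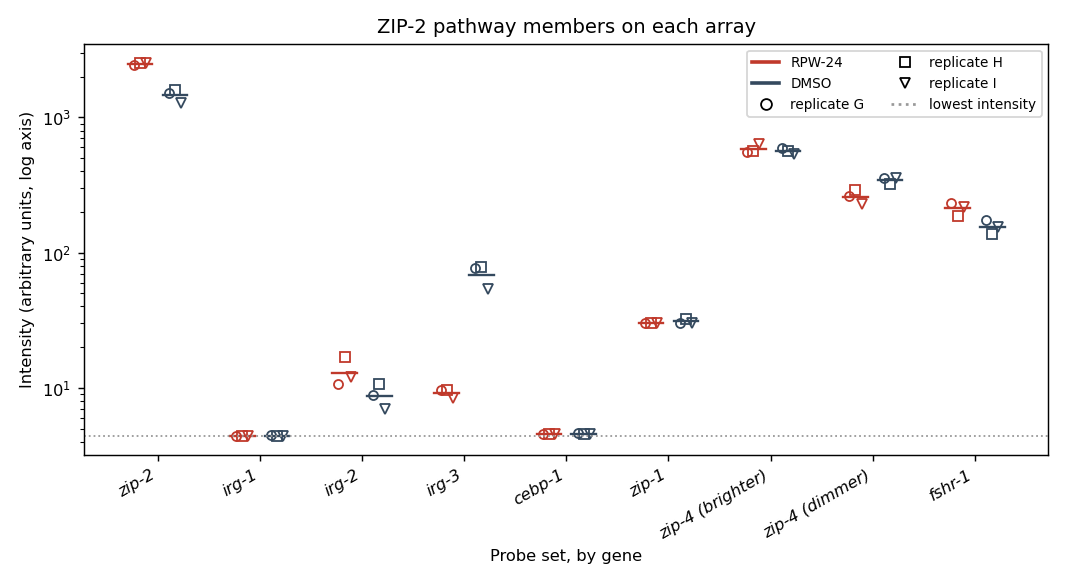
Linear intensity on a log axis for each of the 9 probe sets, with the RPW-24 arrays left of the DMSO arrays. Each array is 1 point, and its shape gives the replicate letter. Short bars mark group means taken on the log2 scale, and a dotted line marks the lowest intensity of 4.39. The 3 RPW-24 points lie above all DMSO points for *zip-2* and *fshr-1*, and below them for *irg-3* and for the dimmer *zip-4* probe set.

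*zip-2* encodes the bZIP factor after which the pathway is named, and lies on chromosome III. Its intensity in replicates G, H and I was 2430, 2541 and 2522 on the RPW-24 arrays, against 1525, 1602 and 1282 on the DMSO arrays. The RPW-24 arrays all lay above the DMSO arrays, and they lay closer to each other than the DMSO arrays did. The means were 2497 ± 59.5 in RPW-24 and 1470 ± 167 in DMSO (SD, n = 3 each). This is a log2 fold change of 0.77 (standard error 0.09, interval 0.53 to 1.02), or 1.71-fold (interval 1.44 to 2.02), with an adjusted p of 0.0253 from limma. The transcript was well expressed with and without the compound. Over all 6 arrays, its percentile rank among the probe sets of an array was between 86.2 and 93.2.

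Within the pairs of arrays that share a replicate letter, *zip-2* differed by 0.67, 0.67 and 0.98 on the log2 scale. The direction was thus the same in G, H and I. The call itself was not firm. Its adjusted p was 0.127 in the limma fit that takes the replicate letter as a block. Leaving out any single array other than the DMSO array of replicate I also ended the call, and over these 6 fits the log2 fold change was 0.68 to 0.84 and the adjusted p 0.0169 to 0.102. Among probe sets with a mean log2 intensity of at least 5, which are 9951 of the 22548, the adjusted p was 0.00376 without the block and 0.0125 with it, the second a setting chosen after the data were seen.

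Some tissue markers also read higher in RPW-24. The summed intensity of 5 intestinal markers was 11323 to 15069 on the RPW-24 arrays and 7314 to 10002 on the DMSO arrays, with a median log2 fold change of 0.63. Before adjustment 4 of the 5 were higher at a p under 0.05 in limma, where 7.44% of all genes were, and after it none was. The other was *elt-2*, at a log2 fold change of 0.14. The sum of 3 body wall muscle markers was 8275 to 11949 in RPW-24 and 5455 to 8330 in DMSO, with a narrow overlap, and that of 4 germline markers was 20421 to 23178 in RPW-24 and 24877 to 26493 in DMSO. Neuronal markers summed to 4481 to 5275 in RPW-24 and 4666 to 5118 in DMSO, and hypodermal ones to 10464 to 12070 in RPW-24 and 10212 to 14154 in DMSO, with overlapping ranges. Apart from the germline, the brightest marker made up most of each sum. Group means were 10180 in RPW-24 and 7115 in DMSO for intestinal *act-5*, and 7800 and 5379 for muscle *unc-15*. They were 4670 and 4673 for neuronal *snb-1*, and 11440 and 11991 for hypodermal *col-19*. The pharyngeal markers *myo-2* and *ceh-22*, the neuronal *unc-10* and the hypodermal *dpy-7* lay at or near the lowest intensity, although whole animals hold these tissues. The part of these differences in the values of *zip-2* was not tested.

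CEBP-1 is a C/EBP-like bZIP factor best known from axon regeneration, where it acts downstream of the kinase DLK-1. The *cebp-1* gene, on the X chromosome, was at 4.52 on all 3 RPW-24 arrays, and at 4.62, 4.52 and 4.52 on the DMSO arrays. These are only 2 distinct values over 6 arrays, just above the lowest intensity. The log2 fold change was -0.01 (interval -0.04 to 0.02), and values this close to the floor carry little information on the transcript. A change of *cebp-1* was not detectable at this signal.

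The infection response genes were named for their induction by *P. aeruginosa*, and *irg-1* on chromosome V is the standard reporter of ZIP-2 activity. It was read at 4.41, 4.39 and 4.40 on the RPW-24 arrays, against 4.48, 4.39 and 4.39 on the DMSO arrays. The highest of the 6 values belonged to a DMSO array, and the others lay at the lowest intensity or just above it. Group means were 4.40 in RPW-24 and 4.42 in DMSO, with a log2 fold change of -0.01 (interval -0.03 to 0.02) and an adjusted p of 0.895 from limma. No induction of *irg-1* was seen on arrays where *zip-2* transcript was 1.71-fold higher. Values this close to the floor carry little information on the *irg-1* transcript, and the activity of ZIP-2 was not tested. The position of the probe set in the transcript and its response to infection were not analysed here.

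*irg-2* also lies on chromosome V, and its intensity was 10.6, 16.8 and 12.1 on the RPW-24 arrays and 8.88, 10.6 and 6.95 on the DMSO arrays. The lowest RPW-24 array stood level with the highest DMSO array, so the groups met. Means were 13.2 ± 3.23 in RPW-24 and 8.81 ± 1.83 in DMSO (SD, n = 3 each), a log2 fold change of 0.57 (standard error 0.25, interval -0.07 to 1.22) with an adjusted p of 0.397 from limma. The interval runs between 0.953-fold and 2.33-fold, so it holds both no change and a doubling in level. Within the pairs the RPW-24 array was higher by 0.26, 0.66 and 0.80 on the log2 scale, and with the letter as a block the unadjusted p was 0.0346 and the adjusted p 0.298. All of these values lie under 32, so raising every value under 32 to 32 left a log2 fold change of 0.00.

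*irg-3*, the third infection response gene on chromosome V, moved the other way. Its intensity was 9.59, 9.59 and 8.43 on the RPW-24 arrays, against 77.2, 78.6 and 53.7 on the DMSO arrays. Every DMSO array lay far above every RPW-24 array. The means were 9.20 ± 0.674 in RPW-24 and 69.8 ± 14.0 in DMSO (SD, n = 3 each), a log2 fold change of -2.90 (standard error 0.18, interval -3.37 to -2.44). The gene was thus 7.49-fold lower in RPW-24 (interval 5.42 to 10.3), with an adjusted p of 0.00354 from limma. It was the only gene of the group past the thresholds of the study.

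The lower level of *irg-3* was seen in each pair, with log2 differences of -3.01, -3.03 and -2.67. The adjusted p was 0.0413 with the replicate letter as a block, and lay between 0.00402 and 0.0269 when each array was left out in turn. The RPW-24 mean is only 2.09 times the lowest intensity while the DMSO mean is 15.9 times it. No RPW-24 array lay at the lowest intensity. With 32 as a floor for all values, the log2 fold change was -1.10 with an adjusted p of 0.0817 from limma, and the methods' t-test on linear intensities gave an unadjusted p of 0.00169 and an adjusted p of 0.0841.

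**Figure D2:**
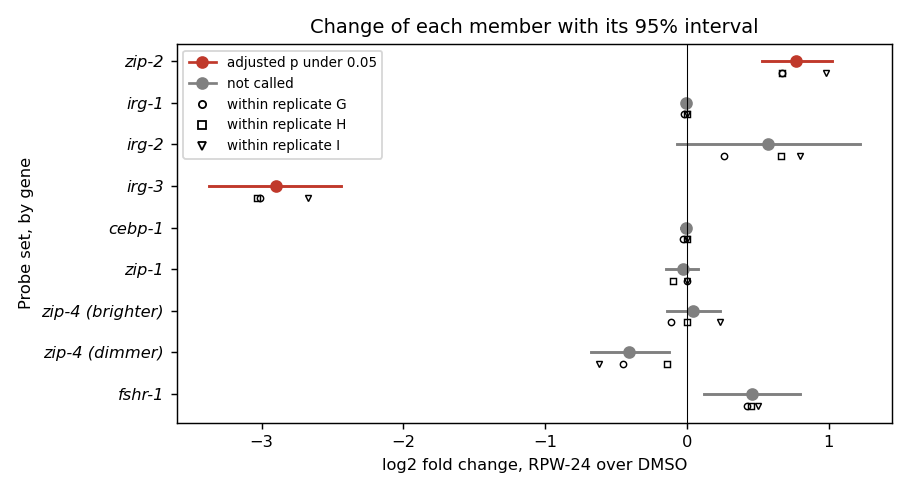
Log2 fold change of each probe set, RPW-24 over DMSO, with its 95% confidence interval from limma (red at an adjusted p under 0.05, grey otherwise) and, as small open symbols, the differences within G, H and I. The interval of *irg-3* lies wholly below 0 at -3.37 to -2.44, that of *zip-2* wholly above at 0.53 to 1.02, and that of *irg-2* spans 0.

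ZIP-1 is a bZIP factor that drives part of the intracellular pathogen response, a program turned on by microsporidia and a virus. Its gene, next but one to the bZIP gene *zip-12* on chromosome III, was at 30.3 on all 3 RPW-24 arrays and at 30.3, 32.4 and 30.3 on the DMSO arrays. The probe set gave 2 distinct values, and the groups shared one of them. The log2 fold change of *zip-1* was -0.03 (interval -0.15 to 0.08), with an adjusted p of 0.929 from limma.

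ZIP-4 is a further bZIP factor, placed with ZIP-2 and the CEBP proteins in the response to mitochondrial damage. *zip-4*, on chromosome I, had a pair of probe sets. The brighter was at 556, 564 and 636 on the RPW-24 arrays and 599, 564 and 540.4 on the DMSO arrays, so the groups overlapped. Its log2 fold change was 0.04 (interval -0.14 to 0.23), a value close enough to 0 that its sign turned without RPW-24 replicate I. The dimmer was at 261, 293 and 229.8 on the RPW-24 arrays and 357, 323 and 354 on the DMSO arrays, all RPW-24 arrays below all DMSO arrays. Its log2 fold change was -0.41 (standard error 0.10, interval -0.68 to -0.13), with an unadjusted p of 0.0131 and an adjusted p of 0.156 from limma, which does not pass.

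On a given array, the log2 intensity of the dimmer *zip-4* probe set minus that of the brighter was -1.09, -0.94 and -1.47 in RPW-24, against -0.75, -0.80 and -0.61 in DMSO. The gap between the probe sets was wider on every RPW-24 array than on any DMSO array. The mean of this value was lower in RPW-24, by a difference of -0.45 on the log2 scale (exact permutation test, two-sided p = 0.1, the smallest that 3 against 3 arrays allow). Both probe sets carry a name suffix for probes that can match several transcripts, and which *zip-4* transcripts each reads was not analysed here.

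FSHR-1 is a leucine-rich repeat G protein-coupled receptor, related to the glycoprotein hormone receptors of mammals, that acts in the intestine in defense against bacteria and in the response to oxidative stress. *fshr-1*, on chromosome V, was at 234, 188 and 218 on the RPW-24 arrays and 174, 137 and 154 on the DMSO arrays. The groups did not overlap, and replicate H was the lowest in each. Means were 213 ± 23.4 in RPW-24 and 155 ± 18.7 in DMSO (SD, n = 3 each), a log2 fold change of 0.46 (standard error 0.13, interval 0.12 to 0.80) or 1.37-fold. The unadjusted p was 0.0184 and the adjusted p 0.191 from limma, which does not pass.

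The differences of *fshr-1* within the pairs were nearly equal at 0.42, 0.45 and 0.50 on the log2 scale. With the letter as a block its unadjusted p from limma was 0.00166 and its adjusted p 0.0807. Over the probe sets with a mean log2 intensity of at least 5, the blocked fit gave an adjusted p of 0.0398, in a setting chosen after the data were seen. The intestinal markers given beside *zip-2* also read higher where *fshr-1* did, and their part in its values was not tested.

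Counted over the 9 probe sets, the RPW-24 arrays all lay above the DMSO arrays for 2 (22.2%) and all below for 2 (22.2%). Over the 20766 probe sets that read 1 gene, the shares were 8.35% above and 10.7% below, and over those with a mean log2 intensity of at least 5 they were 15.3% above and 22.2% below. All but 1 of the 4 separated probe sets, that of *irg-3*, belong to these brighter ones.

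**Figure D3:**
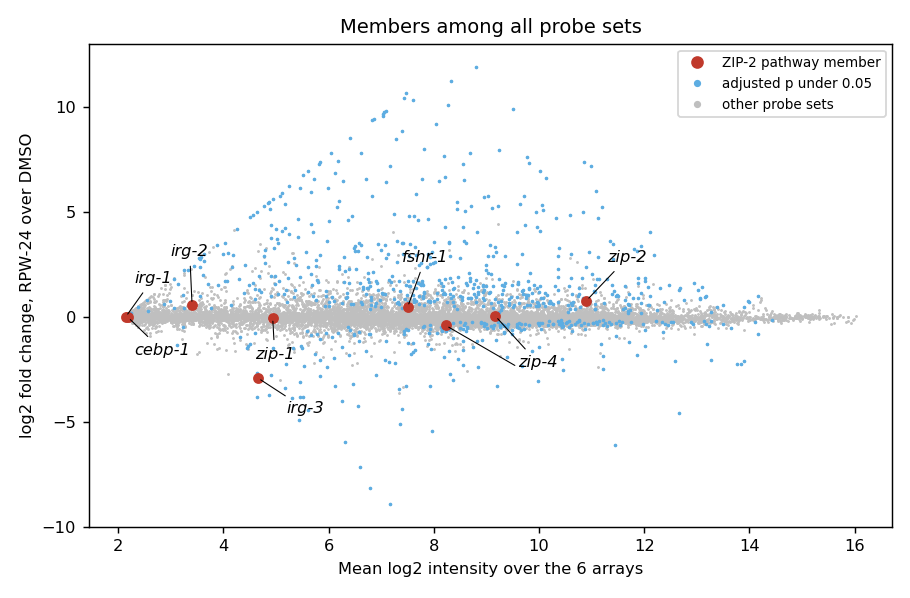
Log2 fold change, RPW-24 over DMSO, against mean log2 intensity for all 22548 probe sets, in blue at an adjusted p under 0.05 and otherwise grey, with the 9 probe sets of the pathway genes in red and named. *irg-1*, *cebp-1* and *irg-2* lie at the left end, near the lowest intensity, while *zip-2* lies to the right at a log2 fold change of 0.77 and *irg-3* stands low at -2.90.

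The rest of the bZIP family was read for comparison, and *zip-3* and *zip-5* passed the test. Of 25 other bZIP names listed 24 were measured (*atf-5* has no entry in the reference table), 15 of them with a mean log2 intensity of at least 5. In limma 2 of the 24 were higher and none lower after adjustment, where 2.79% of all genes were higher and 1.29% lower. Their median log2 fold change was 0.01, and that of all genes was 0.00. *zip-3*, a bZIP factor that restrains the mitochondrial unfolded protein response, was at 1474, 1308 and 994 on the RPW-24 arrays against 552, 543 and 507 on the DMSO arrays, a log2 fold change of 1.22 (adjusted p = 0.0324 from limma). Its dimmer probe set had 0.92, with an adjusted p of 0.229. *zip-5* was at 52.2 ± 3.32 in RPW-24 and 24.7 ± 4.21 in DMSO (SD, n = 3 each), a log2 fold change of 1.09 with an adjusted p of 0.0356 from limma. With the replicate letter as a block neither was called, at adjusted p of 0.102 for *zip-3* and 0.15 for *zip-5*. No difference was called for *atf-4*, which like *zip-2* has upstream open reading frames, at 0.12 (adjusted p = 0.594 from limma).

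Since ZIP-2 responds to blocked translation, genes of translation elongation and the kinases of the initiation factor eIF2 were read as well. Of 9 genes, limma called 2 higher and none lower after adjustment, against 2.79% higher and 1.29% lower over all genes, and their median log2 fold change was -0.02. *pek-1*, the PERK kinase of the endoplasmic reticulum, was at 489 ± 55.1 in RPW-24 and 281 ± 21.4 in DMSO (SD, n = 3 each), a log2 fold change of 0.79 (adjusted p = 0.0324 from limma). The dimmer probe set of *pek-1* had a log2 fold change of 0.48 with overlapping groups and an adjusted p of 0.429, and with the mean of the probe sets *pek-1* was not called. *eef-1A.2*, an elongation factor 1A gene, was at 4144 ± 656 in RPW-24 and 1988 ± 126 in DMSO (SD, n = 3 each), a log2 fold change of 1.05 (adjusted p = 0.0324 from limma). That probe set can match several transcripts, which may be of other genes. Another for *eef-1A.2* had a log2 fold change of 0.30 with an adjusted p of 0.124, and its dimmest lay at 4.39 on all arrays. Under the block of replicate letters the adjusted p were 0.0854 for *pek-1* and 0.0889 for *eef-1A.2*, so neither was called. *eef-2*, which encodes the elongation factor that the *P. aeruginosa* toxin acts on, was at 37632 ± 2271 in RPW-24 and 38168 ± 1232 in DMSO (SD, n = 3 each), with overlapping groups.

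Genes listed around the DLK-1 cascade and the partners of FSHR-1 gave few calls. Of 9 genes listed for the DLK-1 cascade, not all of them for kinases, limma called none after adjustment. At an unadjusted p under 0.05, 2 were higher, where 7.44% of all genes were. Those were *dlk-1*, at 406 ± 82.3 in RPW-24 and 194 ± 23.2 in DMSO (SD, n = 3 each, log2 fold change 1.05, adjusted p = 0.0699), and the kinase gene *mak-2*, with 0.53 (adjusted p = 0.0514). Both were named after their values were seen, and both passed over probe sets with a mean log2 intensity of at least 5. Of 7 genes for FSHR-1 ligands and Gs signalling 6 were measured, none was higher and 1 was lower, against 1.29% lower over all genes. Only 3 of the 6 had a mean log2 intensity of at least 5, and low signal limits the rest. The lower one was *sphk-1*, a sphingosine kinase gene, at 424 ± 32.7 in RPW-24 and 575 ± 5.59 in DMSO (SD, n = 3 each), a log2 fold change of -0.44 (adjusted p = 0.0386 from limma, 0.164 with the replicate letter as a block). With the block, *gplb-1*, which encodes a glycoprotein hormone subunit, was called higher instead, at 109 ± 32.8 in RPW-24 and 49.5 ± 15.1 in DMSO (SD, n = 3 each).

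The other *irg* genes, *irg-4* to *irg-8*, were mostly higher in RPW-24. Of these 5, limma called 4 higher and none lower after adjustment, against 2.79% and 1.29% over all genes, with a median log2 fold change of 7.32. The list was drawn up with the induction of *irg-4*, *irg-5* and *irg-6* on these arrays already known, so their direction is a description. These genes encode CUB-like secreted proteins, and their log2 fold changes were 7.36 for *irg-4*, 7.32 for *irg-5* and 10.08 for *irg-6*. *irg-7*, which is needed for pathogen defense in the intestine, was at 1204 ± 113 in RPW-24 and 719 ± 66.2 in DMSO (SD, n = 3 each), a log2 fold change of 0.74 (adjusted p = 0.0353 from limma, 0.175 with the replicate letter as a block). *irg-8* had 1.48, with an adjusted p of 0.0648.

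Genes of the intracellular pathogen response, in which ZIP-1 acts, gave 1 call. Of 10 genes measured limma found 1 higher and none lower after adjustment, against 2.79% and 1.29% over all genes, with a median log2 fold change of 0.13. Only 4 of the 10 had a mean log2 intensity of at least 5, and low signal limits the rest. The gene *skr-3*, for a Skp1-related part of a ubiquitin ligase, was at 822 ± 116 in RPW-24 and 298 ± 36.8 in DMSO (SD, n = 3 each), a log2 fold change of 1.46 (adjusted p = 0.0157 from limma, 0.0773 with the replicate letter as a block). *pals-5*, the usual reporter of this response, lay at the lowest intensity of 4.39 on all arrays.

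**Figure D4:**
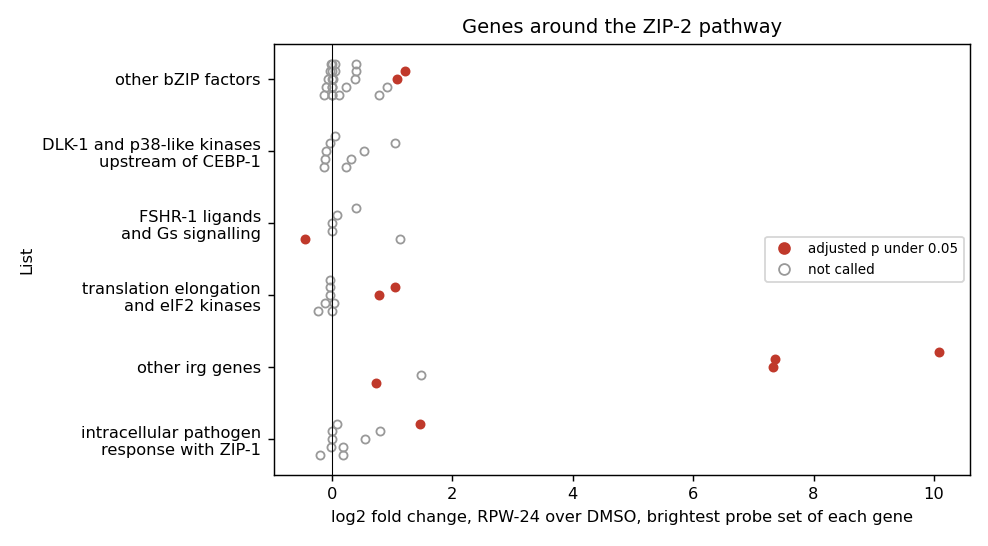
Log2 fold change, RPW-24 over DMSO, of each gene in the lists read beside the pathway genes, 1 point per gene for its brightest probe set, filled red at an adjusted p under 0.05 and open grey otherwise. The medians of the plotted lists, which leave out the tissue markers, lie between -0.02 and 0.13 except for the other *irg* genes, whose median is 7.32.

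The genes beside each pathway gene on its chromosome were also read, with 34 of 36 neighbours measured and 3 of them called higher and none lower at an adjusted p under 0.05, against 2.79% higher and 1.29% lower over all genes. *ceeh-1*, an epoxide hydrolase gene next to *zip-2*, was at 565, 523 and 492 on the RPW-24 arrays and 206, 224 and 197 on the DMSO arrays, with a log2 fold change of 1.33 ± 0.08 (SE, adjusted p = 0.00285 in limma, 0.0515 with the replicate letter as a block). Both *zip-2* and this neighbour were thus higher in RPW-24. Next to *irg-3*, which was lower, *C29G2.6* was higher, at 748 ± 70.6 in RPW-24 and 230.1 ± 21.6 in DMSO (SD, n = 3 each), with a log2 fold change of 1.70 ± 0.11 (SE, adjusted p = 0.00376 in limma). The other neighbours of *irg-3* measured were not called. Beside *cebp-1*, *D1005.2* was at 9.66 ± 0.442 in RPW-24 and 7.27 ± 0.0887 in DMSO (SD, n = 3 each), a log2 fold change of 0.41 (adjusted p = 0.0111 from limma, 0.0734 with the replicate letter as a block), and all of its values lie under 32.

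Likeness of pattern was described by Pearson's r of log2 intensity over the 6 arrays, for pathway genes that varied enough to have a pattern. The 6 points fall into the 2 treatments, and r takes no account of the size of a change, so a high r mostly says that a gene also separates the treatments. For *irg-3*, the most alike were *pud-4* (r = 0.9985), *pud-3* (r = 0.9980) and *spp-1*, a saposin-like gene (r = 0.9953), which were also lower in RPW-24, and 75 of 1585 genes had an r over 0.95. For *irg-2* they were *C13G3.1* (r = 0.9908), *F44A6.5* (r = 0.9803) and the major sperm protein gene *msp-40* (r = 0.9699), with 11 of 1585 over 0.95. *zip-2* varied by 0.99 on the log2 scale, just under the span of 1 that was asked for, and was added after its values were seen. Its most alike were *tir-1*, an adaptor upstream of the p38 kinase pathway (r = 0.9982), *F08B12.4* (r = 0.9973) and *skr-20* (r = 0.9963), and 293 of 1875 genes had an r over 0.95.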

How the data were processed

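RNA of 3 RPW-24 and 3 DMSO samples was read on 6 arrays. The authors used GenePattern version 2.0 to turn the scans into the deposited linear intensity values, by GC-RMA (version not given in the sources used here) with quantile normalization. That step is meant to give arrays a like distribution and hides differences in total RNA. Medians of the deposited values still differed, at 9.83 to 9.98 on the RPW-24 arrays and 8.94 to 9.04 on the DMSO arrays. Precision is limited by there being only 3 arrays in a group.

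Of 22625 probe sets, 77 controls were left out. Of the other 22548, 20766 name 1 gene, 887 several and 895 none in the annotation of the array, and 20701 of the 1-gene probe sets matched the RefSeq table (WBcel235), used for names and neighbours. The log2 intensities went into limma 3.58.1 under R 4.3.3 (lmFit, eBayes with a variance trend), with no block, since the methods name none for the arrays. The main fit thus leaves out the pairing by replicate letter described below. A gene counts as called if any of its probe sets is, and is given by its brightest. Permutation tests and plots used Python 3.11.15, scipy 1.17.1 and matplotlib 3.10.9. The fit was tested on simulated data.

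By the series description, RPW-24 and DMSO exposures of 1 replicate ran in parallel, so letters pair arrays. Deviations from group means correlated at 0.0881 (G), 0.144 (H) and 0.138 (I) for the same letter, and at -0.0944 to -0.0323 for different letters. The letter as a block was 1 alternative fit, beside each array left out, no variance trend, a mean log2 of at least 5, 2 rescalings, values under 32 set to 32, means of probe sets, no multi-transcript probe sets, and the methods' t-test. The methods call it a modified t-test and give no form, and it was run here unpaired with equal variances on linear values.

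The pathway genes and lists were chosen with earlier results of these data known. Named are all pathway genes, up to 4 called genes per list and direction, called genes among the 2 neighbours on either side, and the 3 most alike genes of each pathway gene spanning at least 1 log2 unit. Other genes named are *atf-4*, *eef-2*, *dlk-1*, *mak-2*, *gplb-1*, *irg-8* and *pals-5*, chosen after their values were seen. Promoter and protein sequences were not used here.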

Additional observations from a re-analysis of the deposited data

How the results depend on the processing

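Over 122 combinations of a probe set and an alternative setting, 106 kept their side of the threshold without a turn of sign, 9 lost a call, 4 gained one and 3 turned in sign. The 3 were all counted under the brighter *zip-4* probe set, not called in any setting. Its log2 fold change of 0.04 became -0.02 without RPW-24 replicate I (-0.02 to 0.08 with each array left out in turn). It became -0.10 with arrays centred on their medians. The third value, -0.18, is the mean of both *zip-4* probe sets and so takes in the dimmer. The 1 gene higher at an adjusted p under 0.05 (*zip-2*) became 0 with the replicate letter as a block and 0 with the methods' t-test, where its adjusted p was 0.0523. It was 0 to 1 when each array was left out in turn, and 2 (with *fshr-1*) with the block over probe sets of a mean log2 of at least 5, a setting added after the data were seen. The 1 gene lower (*irg-3*) became 0 over probe sets with a mean log2 of at least 5, with and without the block, since that filter removes it. It became 0 with values under 32 set to 32, which raises its RPW-24 values, and 0 with the methods' t-test, where the cause was not tested. It stayed 1 in all settings that left out an array. With arrays centred on their medians the count lower was 4 (*cebp-1*, *irg-1*, *irg-3* and *zip-4*). That step moves all probe sets by 0.136 on the log2 scale, also those at the floor. At the thresholds of the study, the 1 lower gene became 0 with the filter at a mean log2 of 5, with that filter and the block, and with values under 32 set to 32, and no setting gave a higher gene. Over all genes, the 478 higher and 220 lower became 151 and 22 with the block, 161 and 51 with the methods' t-test, 513 and 734 after a further quantile normalization, and 928 and 11858 with centring. Low signal limits *cebp-1*, *irg-1* and *irg-2* most.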
